A study of Mus musculus with 21 samples.

Results

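The 33 genes described here encode receptors for glutamate, transporters that load and clear it, and 4 of the proteins that hold its receptors at the synapse. They were chosen by gene symbol from the 21872 symbols of the deposited count tables, and all 33 were found in both tables: 4 AMPA, 7 NMDA, 5 kainate and 1 delta receptor subunits, 6 metabotropic receptors, 3 vesicular and 3 plasma membrane transporters, and 4 postsynaptic partners. RNA was sequenced from brains of mice that received water (control) or TETA, the copper chelator trientine, a treatment whose libraries are labelled copper-deficient. There were 6 control and 6 TETA libraries at embryonic day 18.5 (E18.5) and 5 control and 4 TETA libraries at 7 weeks after birth. At E18.5 each group is numbered 1-1, 1-2, 2-1, 2-2, 3-1 and 3-2, and the labels do not say what the parts of a number stand for. Libraries that share a first part may not be independent. Every library is labelled as brain, while the extraction protocol speaks only of the prefrontal cortex of males at 7 weeks, so the region and sex at E18.5 are not given. Strain, dose, route and the start and length of treatment are not given in the sources used here. No label says that replicates came from separate animals, so p-values measure the spread between these libraries, which may be technical.

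Glutamate is the main excitatory transmitter of the cortex. Vesicular transporters (Slc17a family) pack it into vesicles, AMPA receptors (Gria genes) carry the fast synaptic current, NMDA receptors (Grin genes) pass calcium when they bind glutamate together with a co-agonist, kainate receptors (Grik genes) tune release and excitability, and metabotropic receptors (Grm genes) act through G proteins. Astrocyte transporters (Slc1a2 and Slc1a3) remove glutamate from the cleft, and scaffolds such as PSD-95 (Dlg4) anchor the receptors. In the developing forebrain, immature synapses are known for NMDA receptors rich in GluN2B (Grin2b) and for a vesicular pool shared by VGLUT1 and VGLUT2 (Slc17a7 and Slc17a6).

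The tables hold 14678265 to 24308555 counts per library at E18.5 and 17838051 to 24035857 at 7 weeks. Levels are CPM, counts relative to the library total, on 1 scale for all 21 libraries (trimmed mean of M values, TMM), and levels of different genes are compared only per kilobase of exon. That length covers all annotated exons of a gene (15548 bases for Gria2, 6043 for Gria1), not the forms expressed. Shares and the order of genes within a class depend on it. Ratios of 2 genes are not corrected for length: they compare libraries, and do not say which gene is higher. Markers of cortical projection neurons were present at both ages (summed CPM of 7 genes 1364 to 1519 in E18.5 controls and 608 to 637 in 7-week controls), and those of cerebellum and hindbrain were near 0 (summed CPM 0.628 to 1.24 and 1.67 to 2.09). At 7 weeks the groups also differed in marker RNA: all 13 striatum markers were lower in TETA libraries (median log2 fold change -1.34). Their summed CPM was 1257 to 1544 in controls and 578 to 729 in TETA. At E18.5 the same sums were 678 to 747 and 686 to 719. Choroid plexus RNA differed between single libraries: its 4 markers summed to 61.2 CPM in control 4 at 7 weeks against a median of 3.78 among controls, and results without control 4 are given below. In such tissue samples fewer cells of a type and less RNA per cell cannot be told apart.

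The comparison of 7-week with E18.5 control libraries asked how the glutamate genes differ between the embryonic and the young adult brain. The members that rose most by 7 weeks were higher as follows: the VGLUT1 gene Slc17a7 by 21.5-fold, the glutamate transporter gene Slc1a2 by 29.3-fold, the NMDA subunits Grin2a and Grin2c by 21.5-fold and 30.8-fold, and Camk2a, a kinase of the postsynaptic density, by 37.1-fold. Lower at 7 weeks were the VGLUT2 gene Slc17a6, the NMDA subunits Grin2d and Grin3a and the kainate subunits Grik1, Grik2 and Grik3. At an adjusted p under 0.05 in edgeR (quasi-likelihood, Benjamini-Hochberg over all genes), 24 of the 32 tested members were higher at 7 weeks, against 44% of all genes, and 6 were lower, against 45.3%. Grin3b (0 to 7 counts per library) was too low to test. All 32 passed the filter on low counts within each age. So many genes differ between the ages that this count says little: 89.3% of the 14660 genes tested were called, and the groups did not overlap for 29 of 32 members and for 81.5% of genes with a mean of at least 1 CPM. With a further limit of 2-fold, added after the counts were seen, 17 of 32 members (53.1%) were higher, against 23.2% of all genes, and 4 (12.5%) were lower, against 18%. The median log2 fold change was 1.07 over the members and -0.02 over all genes. Age cannot be told apart from the table, the dissection or the sequencing run. RNA of cell type markers differed too: oligodendrocyte markers summed to 41.5 to 50.4 CPM at E18.5 and 6192 to 7279 at 7 weeks. Astrocyte markers summed to 220.4 to 257 and 1475 to 1739. Their part in the members' differences was not tested.

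**Figure D1:**
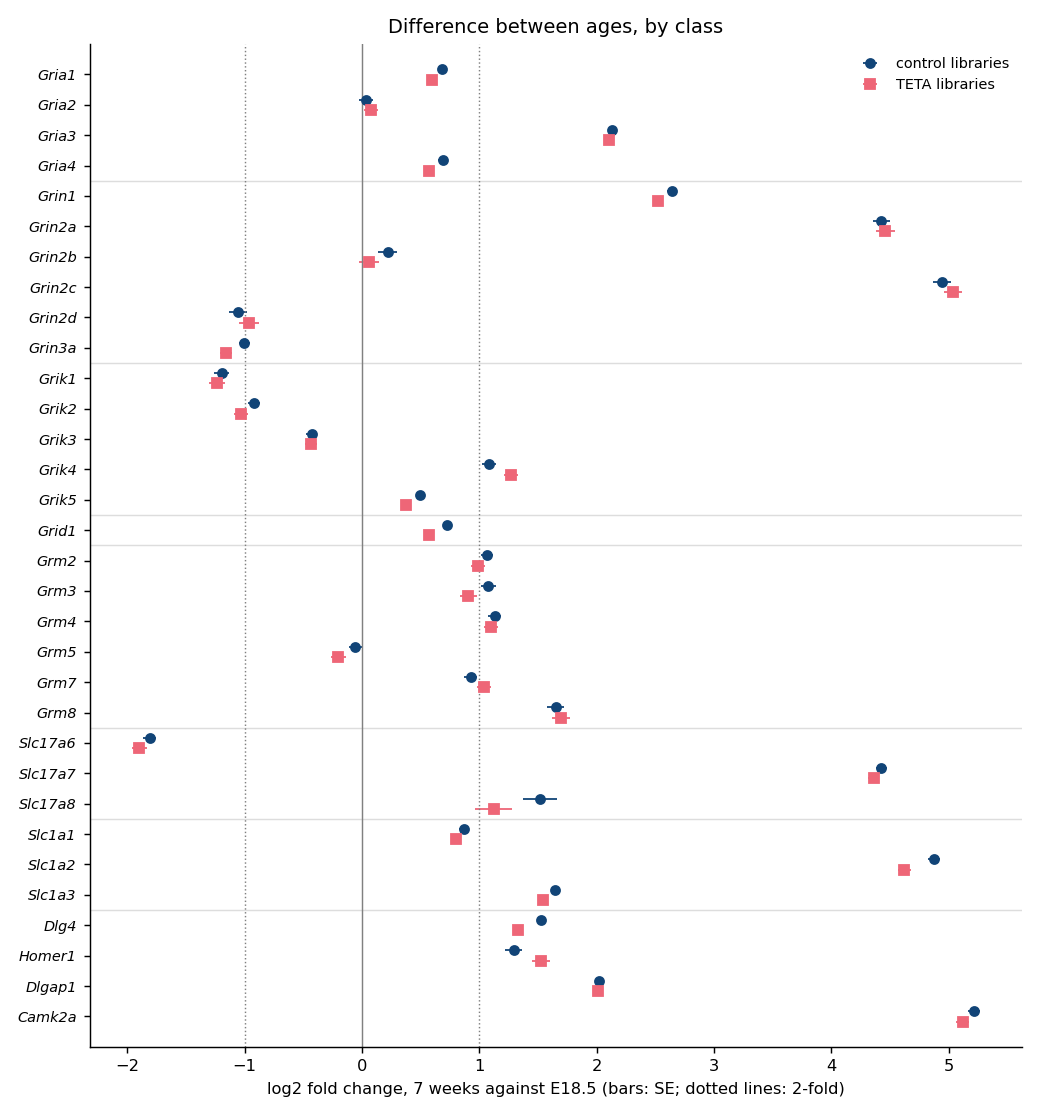
Log2 fold change of each tested member between 7 weeks and E18.5, in control libraries (circles) and TETA libraries (squares), with standard errors (SE) from edgeR, grouped by class. Camk2a, Slc1a2, Grin2c, Grin2a and Slc17a7 lie above 4 in both, and Slc17a6 lies lowest.

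Among the AMPA receptor genes, Gria3 rose most. Gria1 was 232 to 268 (median 238) CPM in E18.5 controls and 410.2, 372, 382, 402 and 389.9 CPM in 7-week controls, a log2 fold change of 0.68 (SE 0.0383), with no overlap. Gria2, whose edited subunit keeps the channel closed to calcium, was 662 to 933 (median 717) CPM at E18.5 and 776, 764, 782, 753 and 729 CPM at 7 weeks. These Gria2 ranges overlapped and the difference did not pass the test (log2 fold change 0.04, SE 0.0584, adjusted p = 0.548, edgeR), and its sign turned to -0.11 when libraries were scaled by their totals alone. Gria3 rose from 85.7 ± 5.49 CPM (SD, n = 6) to 376 ± 4.06 CPM (SD, n = 5), and Gria4 from 93.8 ± 6.39 to 151 ± 3.77 CPM. Per kilobase of exon, the Gria2 share of the AMPA receptor transcripts was 42.6% ± 1.84 (SD, n = 6) at E18.5 and 27.8% ± 0.598 (SD, n = 5) at 7 weeks, and the Gria3 share was 7.81% ± 0.271 and 21.7% ± 0.41. The Gria1 share was 36.2% ± 1.56 and 36.8% ± 1.04, and the Gria4 share 13.4% ± 0.441 and 13.6% ± 0.254. The log2 ratio of Gria2 to Gria1 was 1.5 to 1.8 in E18.5 controls and 0.90 to 1.04 in 7-week controls, a difference of -0.64.

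Of the 6 NMDA receptor genes tested, 4 rose and Grin2d and Grin3a fell. Grin1, which encodes the subunit required in every NMDA receptor, was 99 to 113 (median 105) CPM at E18.5 and 651, 655, 649.9, 667 and 700.1 CPM at 7 weeks, 6.25-fold higher. Grin2a, typical of mature receptors, was 9.42 to 15.3 (median 10.6) CPM at E18.5 and 228, 262, 239, 233 and 237 CPM at 7 weeks. Grin2b, typical of immature receptors, was 536 to 751 (median 612) CPM at E18.5 and 725, 784, 743, 766 and 721 CPM at 7 weeks. The Grin2a ranges lay far apart, whereas those of Grin2b overlapped: its log2 fold change was 0.22 (SE 0.0818, adjusted p = 0.013, edgeR), and this call was lost without TMM scaling (0.07, adjusted p = 0.358). Grin2b was not lower at 7 weeks, while Grin2a and Grin2c were higher. Per kilobase, Grin2a took 2.01% ± 0.23 of the GluN2 transcripts at E18.5 and 24% ± 0.911 at 7 weeks, and Grin2c, 1.06% ± 0.139 and 18.3% ± 1.15. The share of Grin2b went from 82.5% ± 2.08 to 53.9% ± 0.617 and that of Grin2d from 14.4% ± 2.04 to 3.86% ± 0.209. Grin3a, a GluN3 subunit that lowers calcium entry and is known from immature synapses, was 102 to 116 (median 106) CPM at E18.5 and 53.1, 57.1, 52, 54.9 and 49.9 CPM at 7 weeks, a log2 fold change of -1.0 (SE 0.0452). Grin2d fell by about the same (log2 fold change -1.06, SE 0.0772). Exons of Grin1 overlap an antisense gene over 13.5% of their length and those of Grin2d overlap another gene over 9.66%, as do those of the metabotropic receptor gene Grm2 over 9.60%, and the strand setting of the counting is not given, so reads of such pairs cannot be told apart.

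Kainate receptor genes split by subunit type. Grik1, Grik2 and Grik3, the subunits that can form channels alone, fell, with log2 fold changes of -1.2, -0.92 and -0.43. Grik4 and Grik5, the high-affinity subunits that need such a partner, rose by 1.08 and 0.50 on the log2 scale. Per kilobase, Grik5 held 48.5% ± 1.3 of the kainate receptor transcripts at E18.5 and 64.3% ± 0.979 at 7 weeks, and Grik3 was next with 31.6% ± 1.21 and 22.1% ± 1.06. Grid1, a delta subunit that binds cerebellins across the synapse, rose from 46.9 ± 1.7 CPM (SD, n = 6) to 77.6 ± 2.85 CPM (SD, n = 5).

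Of the 6 metabotropic receptor genes, 5 rose and 1 did not pass the test. Grm2, Grm3, Grm4, Grm7 and Grm8, all coupled to inhibitory G proteins, had log2 fold changes of 1.07, 1.08, 1.13, 0.93 and 1.65. Grm5, the receptor of the set that acts through phospholipase C, was 238 ± 30.6 CPM at E18.5 and 229 ± 15.8 CPM at 7 weeks (log2 fold change -0.06, SE 0.0586, adjusted p = 0.369, edgeR). Without TMM scaling the Grm5 difference was -0.20 and passed the test (adjusted p = 0.00152). Per kilobase, the Grm5 share of the 6 genes was 41.1% ± 2.18 at E18.5 and 24.3% ± 1.6 at 7 weeks, and that of Grm3 was 29.6% ± 0.896 and 38.2% ± 1.13.

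The genes of VGLUT1 and VGLUT2 moved in opposite directions. Slc17a7 (VGLUT1, chr7:45163949-45176142, plus strand, GRCm38) was 78 to 84.7 (median 83.2) CPM in E18.5 controls and 1756, 1764, 1672, 1746 and 1876 CPM in 7-week controls. Slc17a6 (VGLUT2, chr7:51622006-51671119, plus strand) was 56.4 to 66.7 (median 64) CPM at E18.5 and 16.5, 19.6, 19.4, 16.5 and 18.2 CPM at 7 weeks. Neither gene's values overlapped between the ages, and the log2 fold changes were 4.43 (SE 0.0464) and -1.81 (SE 0.0569). Per kilobase, Slc17a7 made 55.6% ± 1.89 (SD, n = 6) of the vesicular transporter transcripts at E18.5 and 98.6% ± 0.132 (SD, n = 5) at 7 weeks, and Slc17a6 made 42.8% ± 1.68 and 1.01% ± 0.0992. VGLUT2 is abundant in thalamic neurons, and the 5 thalamus markers also differed, at 50.3 to 55.2 summed CPM in E18.5 controls and 27.1 to 30.9 in 7-week controls. Lhx9 (-5.18), Gbx2 (-4.09), Prkcd (-1.68) and Tcf7l2 (-1.39) were lower and Ramp3 (1.24) was higher on the log2 scale. Their part in the Slc17a6 difference was not tested. Slc17a8 (VGLUT3) rose from 2.11 ± 0.669 to 6.04 ± 0.81 CPM.

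The stretches of 250 bases before the annotated start of these vesicular transporters, and of the astrocyte transporters described next, are shown because each pair differed in direction or degree between the ages. Sequences are from RefSeq (GRCm38.p6), 5′ to 3′ on the gene's strand, with GC boxes (GGGCGG or its reverse complement CCGCCC) in capitals.
Slc17a7 (chr7:45163671-45163920, plus strand): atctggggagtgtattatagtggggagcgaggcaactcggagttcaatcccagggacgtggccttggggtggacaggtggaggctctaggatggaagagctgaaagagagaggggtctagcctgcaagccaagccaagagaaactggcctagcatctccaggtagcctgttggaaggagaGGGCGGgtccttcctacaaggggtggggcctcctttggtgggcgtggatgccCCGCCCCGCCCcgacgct
Slc17a6, the upstream of 2 annotated starts (chr7:51621580-51621829, plus strand): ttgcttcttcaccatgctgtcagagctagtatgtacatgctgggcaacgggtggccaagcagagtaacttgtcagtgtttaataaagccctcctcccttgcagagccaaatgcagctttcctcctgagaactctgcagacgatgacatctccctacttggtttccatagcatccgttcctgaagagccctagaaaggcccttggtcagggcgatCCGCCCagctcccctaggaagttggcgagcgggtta
Slc1a2, a start inside the gene span given below (chr2:102706188-102706437, plus strand): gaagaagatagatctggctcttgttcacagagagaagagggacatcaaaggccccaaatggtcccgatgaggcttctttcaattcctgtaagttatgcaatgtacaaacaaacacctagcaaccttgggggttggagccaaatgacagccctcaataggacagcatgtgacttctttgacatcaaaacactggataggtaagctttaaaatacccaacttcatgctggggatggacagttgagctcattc
Slc1a3 (chr15:8710808-8711057, minus strand): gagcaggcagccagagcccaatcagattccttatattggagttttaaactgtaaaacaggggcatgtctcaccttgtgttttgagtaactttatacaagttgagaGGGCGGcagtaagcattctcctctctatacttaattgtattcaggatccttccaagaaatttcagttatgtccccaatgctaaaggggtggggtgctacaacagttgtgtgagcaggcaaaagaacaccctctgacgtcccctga
Of the stretches shown, that of Slc17a7 held 3 GC boxes, 2 of them overlapping, those of Slc17a6 and Slc1a3 held 1 each and that of Slc1a2 held none. GC content was 61.2% for Slc17a7, 53.2% for Slc17a6 and 44.8% for each of Slc1a2 and Slc1a3, against a median of 52.4% over 32851 promoters. The other Slc17a6 stretch (chr7:51624387-51624636), not shown, held 0 GC boxes and had a GC content of 41.2%. The Slc1a2 stretch does not describe the start of the gene span. RefSeq stretches were matched for 23 of the 33 members. These 23 have 32 stretches, since some have several starts. A GC box lay in 14 of the 32 (43.8%), and in 32.7% of all promoters. On either strand, an E-box (CACGTG) lay in 2 of 32 (6.02% of all promoters), and the cyclic AMP response element (TGACGTCA, 1.55%), the NRF-1 site (0.782%) and a serum response element (0.0609%) in 0 of 32. A match of letters is not a bound site.

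Of the plasma membrane transporters, all 3 rose and Slc1a2 rose most. Slc1a2 (GLT-1, the main astrocyte transporter of the adult forebrain, chr2:102658659-102790784, plus strand) was 132 to 163 (median 137) CPM at E18.5 and 4058, 4267, 3884, 4035 and 4384 CPM at 7 weeks. Slc1a3 (GLAST, chr15:8634124-8710764, minus strand), the transporter of radial glia and young astrocytes, was 196 to 229.6 (median 208) CPM at E18.5 and 649, 656, 599.8, 647 and 721 CPM at 7 weeks. Slc1a1 (EAAC1, a neuronal transporter) rose from 81.7 ± 3.98 CPM (SD, n = 6) to 149 ± 6.71 CPM (SD, n = 5). No values overlapped between ages for the 3 genes. Per kilobase, Slc1a3 led at E18.5 with 54.3% ± 0.91 and Slc1a2 led at 7 weeks with 76.8% ± 0.314. Exons of Slc1a1 overlap a gene on the other strand over 31.9% of their length, so its level is uncertain.

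The 4 postsynaptic partners all rose by over 2-fold. The log2 fold changes were 1.52 for Dlg4, 1.29 for Homer1 (a scaffold of metabotropic receptors), 2.02 for Dlgap1 (a partner of PSD-95) and 5.21 for Camk2a. Camk2a rose from 122 ± 6.94 CPM (SD, n = 6) to 4545 ± 289.8 CPM (SD, n = 5). Neuronal marker genes did not move as 1 block: Snap25, of the release machinery, differed by 3.82 and Tubb3, a tubulin of young neurons, by -2.57 on the log2 scale.

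**Figure D2:**
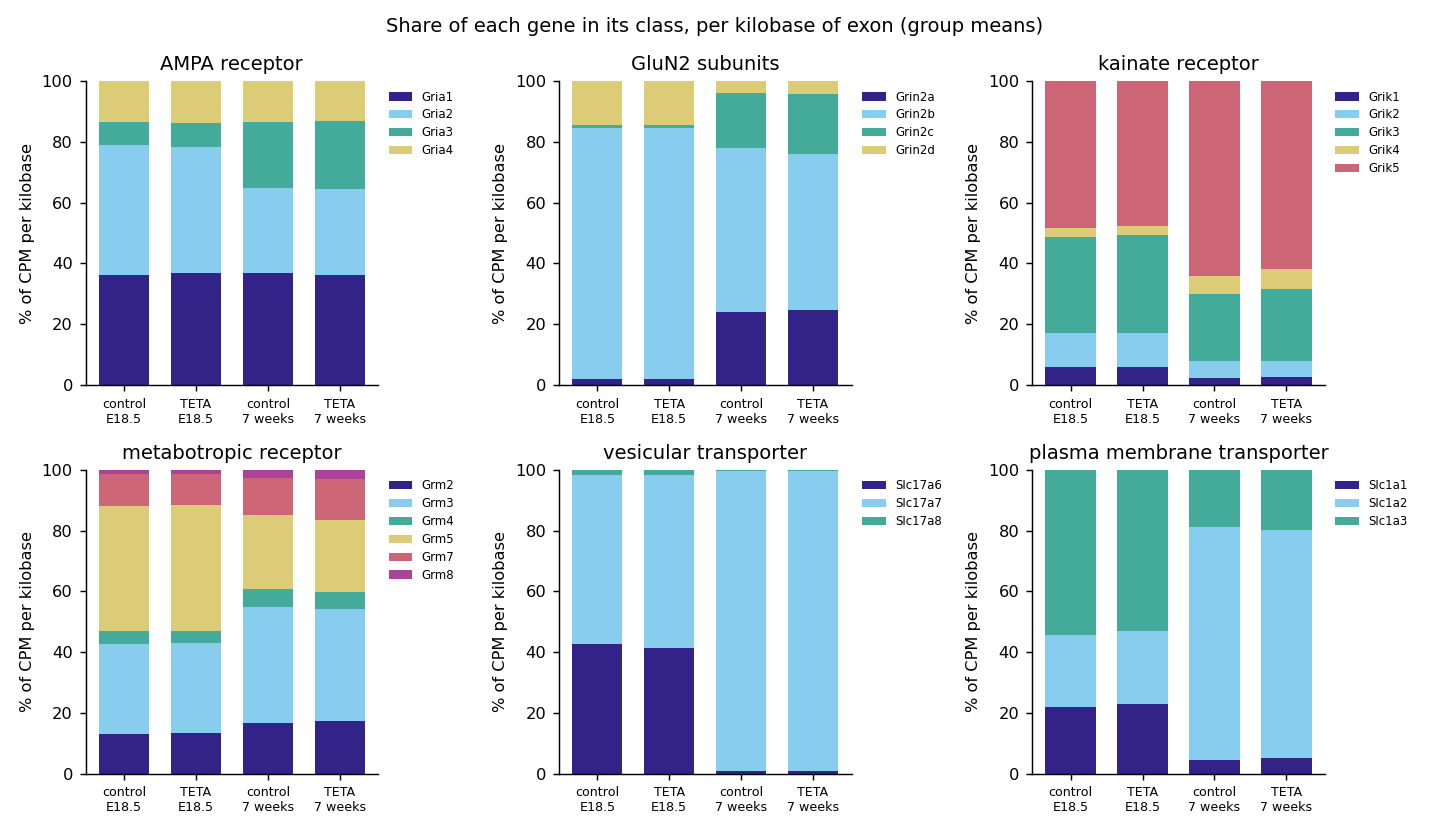
Group mean share of each gene in the CPM per kilobase of its class, in percent, for the 4 groups. Grin2a and Grin2c take up a larger part of the GluN2 subunits at 7 weeks, Slc17a7 nearly all vesicular transporters (98.6% in controls) and Slc1a2 most of the plasma membrane transporters (76.8%).

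Ratios taken within a library need no scaling between libraries, and all 5 differed between the ages in controls. The ratio of Grin2a to Grin2b was 17.5-fold higher at 7 weeks (log2 difference 4.13), that of Slc17a7 to Slc17a6 73.6-fold higher and that of Slc1a2 to Slc1a3 9.36-fold higher. The Grin3a to Grin1 ratio was lower, with a log2 difference of -3.64. No ratio's values overlapped between the ages, and each gave a two-sided exact permutation p of 0.00433, the smallest that 6 against 5 libraries allow (adjusted over 15 ratio tests, p = 0.013).

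The directions were alike in TETA libraries, whose own age contrast shares the filter, scaling and dispersion of the same fit. Between 7 weeks and E18.5 in TETA libraries, 30 of 32 members were called, 23 higher and 7 lower, against 88.1% of all genes, 43.6% higher and 44.5% lower. Of the members, 29 of 32 were called in the same direction in both contrasts, as were 84.4% of all genes. Grin2b was called in controls and not in TETA libraries, and Grm5 in TETA libraries (-0.20) and not in controls, but the test of the difference did not pass for either (adjusted p = 0.571 and 0.429, edgeR). The largest gap between the contrasts was 0.39 on the log2 scale, for Slc17a8, and it did not pass the test of the difference (adjusted p = 0.407, edgeR).

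The comparison of TETA with control at E18.5 asked whether the chelator changes these genes before birth. None of the 32 tested members passed the edgeR test, and none of the 13794 genes did (0% called). At an unadjusted p under 0.05 there were 660 genes, 4.78% of those tested, and 1 member, Grm4. Log2 fold changes of the members ran from -0.16 to 0.07, with 21 above and 11 below 0 and a median of 0.01. AMPA subunits lay between -0.03 and 0.04, NMDA subunits between -0.02 and 0.07, and kainate subunits between -0.06 and 0.02. The metabotropic receptors ran from -0.16 to 0.02, the transporters from -0.03 to 0.07, and the postsynaptic partners from 0.01 to 0.04.

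The smallest p-value was that of Grm4, the group III presynaptic receptor mGluR4. Its levels ran 13.1 to 16.3 (median 14.6) CPM in controls and 12.3 to 14.3 (median 13) CPM in TETA libraries, which overlap (log2 fold change -0.16, SE 0.0644, adjusted p = 0.941, edgeR). Slc1a1 was 77.6 to 87.9 (median 80.9) CPM in controls and 82.2 to 88.1 (median 86.2) CPM in TETA (log2 fold change 0.07, SE 0.0364, adjusted p = 0.996, edgeR). Grin3a was 102 to 116 (median 106) CPM and 105 to 125 (median 109.95) CPM (log2 fold change 0.07, SE 0.0439, adjusted p = 0.996, edgeR). In no member were the E18.5 groups apart, and 0.314% of the genes with a mean of at least 1 CPM were. Precision differed between members: the SE was 0.0331 for Dlg4 and 0.177 for Slc17a8. For Grin2b an approximate 95% interval of the log2 fold change ran from -0.12 to 0.22, and for Slc1a2 from -0.06 to 0.13. The 5 ratios had exact two-sided permutation p-values of 0.286 to 0.989 at E18.5.

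The members called later at 7 weeks were measured at E18.5 with overlapping groups. Dlg4 was 375 to 401 (median 387) CPM in controls and 379.7 to 401 (median 392) CPM in TETA libraries. Homer1 was 99.96 to 125 (median 105) CPM in controls and 101 to 117 (median 108) CPM in TETA libraries. Slc1a2 was 129.9 to 152 (median 147) CPM in TETA libraries, beside the control values given above. These scaffold and transporter genes had TETA medians inside the control ranges. Grik5 was 201 to 227 (median 214) CPM in controls and 202 to 220.3 (median 210.2) CPM in TETA libraries. Grid1 was 43.8 to 48.9 (median 47.2) CPM in controls and 45.5 to 50.2 (median 46.9) CPM in TETA libraries. Grm3 was 46.3 to 56.7 (median 50.3) CPM in controls and 41.2 to 56.7 (median 54.9) CPM in TETA libraries. These receptor genes overlapped as well. Of the other ratio genes, TETA libraries at E18.5 had Gria1 at 236 to 258 (median 251) CPM and Gria2 at 696 to 818 (median 707) CPM. Grin1 was 106 to 124 (median 108) CPM, Grin2a 9.38 to 13.1 (median 10.7) CPM and Grin2b 512 to 776 (median 683) CPM. Slc17a7 was 76.6 to 94.9 (median 85.1) CPM, Slc17a6 58 to 64.3 (median 62.8) CPM and Slc1a3 203 to 215 (median 206) CPM. All of these overlapped the control values of the same age.

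At 7 weeks TETA libraries had lower RNA levels of a glutamate transporter gene, 4 receptor genes and the PSD-95 gene Dlg4, and a higher RNA level of Homer1. Slc1a2 fell by 13.4% and Dlg4 fell by 11.4%. Grik5 fell by 9.24%, Grm4 fell by 11.6%, Grm3 fell by 9.93% and Grid1 fell by 8.13%, while Homer1 rose 1.2-fold. These 7 of 32 members (21.9%) passed the edgeR test, against 9.96% of the 14240 genes tested. By direction, 6 of 32 (18.8%) were lower, against 4.28% of all genes, and 1 (3.12%) was higher, against 5.67%. The members' log2 fold changes had a median of -0.04, against 0.00 over all genes, with 20 below and 12 above 0. No AMPA or NMDA subunit and no vesicular transporter was among the 7. The 13 striatum markers were lower in the same libraries, as given above, and summed astrocyte markers were 1475 to 1739 CPM in controls and 1399.5 to 1538 CPM in TETA. Among the other marker lists, genes that passed the test as lower in TETA were 2 of 7 of cortical projection neurons (Rorb -0.18, Emx1 -0.26), 2 of 5 tested of radial glia and progenitors (Sox2 -0.21, Hes5 -0.44), and 1 each of interneurons (Gad2 -0.16), choroid plexus (Clic6 -1.6) and cerebellum and hindbrain (Fat2 -1.95). Genes that passed as higher were 1 pan-neuronal gene (Snap25 0.08) and 1 endothelial gene (Flt1 0.22). None of the 5 oligodendrocyte markers passed, with all below 0 and a median of -0.11. Their part in the members' differences was not tested. With a striatum marker score as a covariate 0 members and 0 genes passed (671 genes had an unadjusted p under 0.05). The log2 fold changes were then -0.23 (SE 0.134) for Slc1a2, -0.21 (SE 0.116) for Dlg4, -0.27 (SE 0.173) for Grm3 and 0.24 (SE 0.34) for Homer1. They were -0.10 (SE 0.127) for Grik5, -0.05 (SE 0.203) for Grm4 and 0.04 (SE 0.152) for Grid1, and Grm5, just outside the threshold without the covariate, went from -0.13 to 0.09. The summed markers did not overlap between the groups, so treatment and striatal content cannot be told apart.

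**Figure D3:**
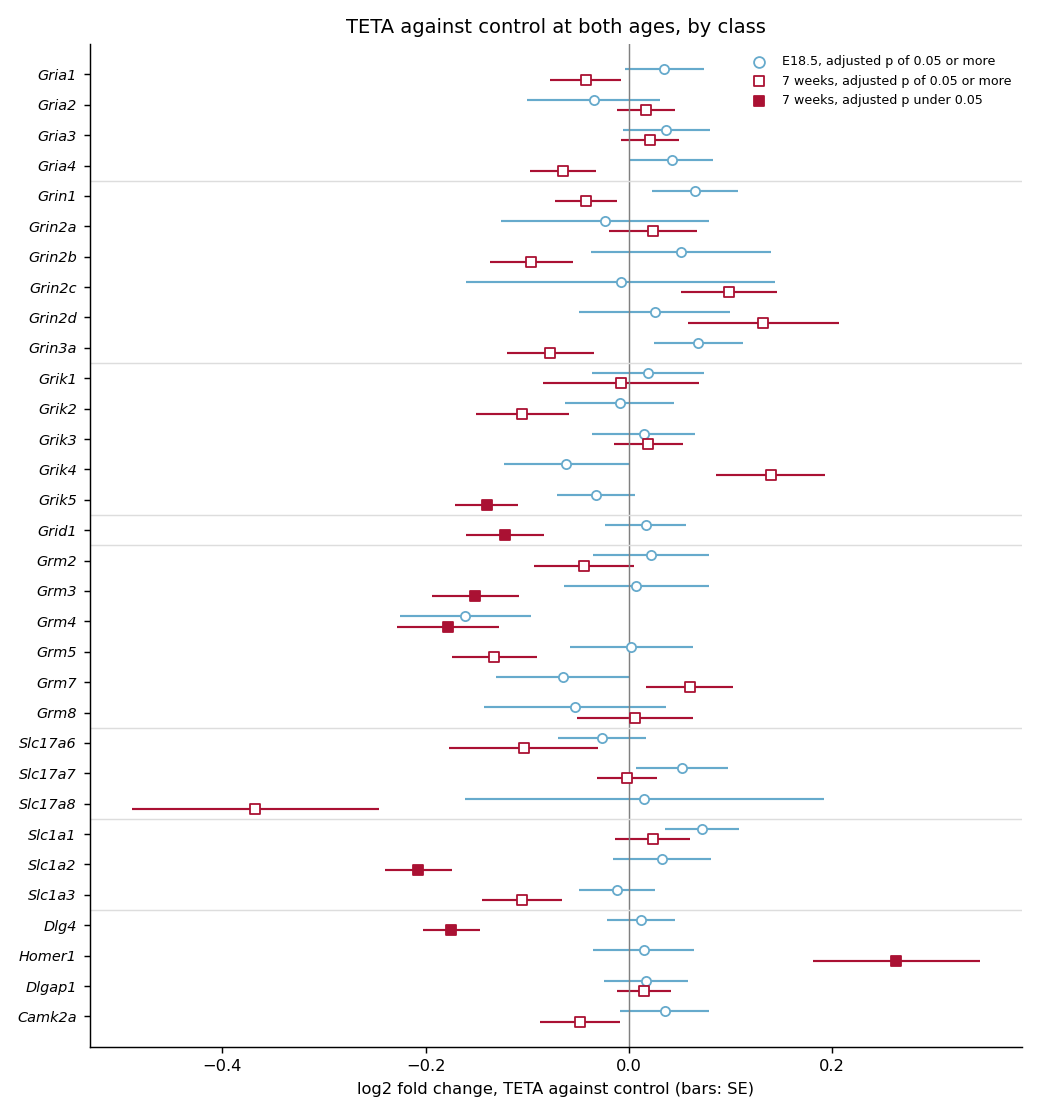
Log2 fold change of TETA against control for each tested member at E18.5 (circles) and at 7 weeks (squares), with SE from edgeR, grouped by class; filled squares passed the adjusted threshold. The 7 filled squares are Grik5, Grid1, Grm3, Grm4, Slc1a2, Dlg4 and Homer1.

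Slc1a2 had the lowest adjusted p of the members. It was 4058, 4267, 3884, 4035 and 4384 CPM in controls and 3741, 3503, 3397 and 3548 CPM in TETA libraries, so every TETA library lay below every control (log2 fold change -0.21, SE 0.0329, adjusted p = 3.83e-04, edgeR). Slc1a3 was 649, 656, 599.8, 647 and 721 CPM in controls and 606, 625, 599.9 and 585 CPM in TETA, with overlap (log2 fold change -0.11, SE 0.0396, adjusted p = 0.102, edgeR). Slc1a1 differed by 0.02 (SE 0.0369). The log2 ratio of Slc1a2 to Slc1a3 was 2.6 to 2.7 in controls and 2.48 to 2.62 in TETA, a difference of -0.10 that did not hold after adjustment (exact permutation p = 0.0317, adjusted p = 0.068). Of the 6 astrocyte markers, 2 were lower in TETA at 7 weeks, Aldh1l1 and Aldoc (both -0.21), while Gja1 (0.10), Aqp4 (-0.01), Gfap (-0.12) and Fgfr3 (-0.07) did not pass the test. The list's median was -0.10, with 5 of 6 below 0. Their part in the Slc1a2 and Grm3 values was not tested.

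Dlg4 (PSD-95, chr11:70016942-70047522, plus strand) was 1137, 1124, 1049.9, 1126 and 1132 CPM in controls and 973, 977, 957 and 1010.2 CPM in TETA libraries (log2 fold change -0.17, SE 0.0279, adjusted p = 4.04e-04, edgeR). The groups did not overlap. Homer1 (chr13:93299635-93405129, plus strand) was 239.95, 299, 307, 243 and 227 CPM in controls and 316, 273, 293 and 372 CPM in TETA (log2 fold change 0.26, SE 0.0822, adjusted p = 0.0469, edgeR). Its groups overlapped: controls 2 and 3 were above TETA 2 and TETA 3. Homer1 makes long scaffold forms and a short form induced by activity, and counts per gene do not tell them apart. The other postsynaptic partners did not pass, with 0.01 (SE 0.0263) for Dlgap1 and -0.05 (SE 0.0398) for Camk2a.

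Among ion channel subunits, Grik5 and Grid1 were lower. Grik5 (chr7:25009849-25072346, minus strand) was 309, 292, 289.8, 308 and 310.3 CPM in controls and 274, 272, 266 and 276 CPM in TETA libraries, without overlap (log2 fold change -0.14, SE 0.031, adjusted p = 0.00601, edgeR). Grid1 (chr14:34820108-35583379, plus strand) was 80.1, 74.7, 79.6, 79.4 and 74.4 CPM in controls and 69.7, 72.9, 70.7 and 69.8 CPM in TETA, also without overlap (log2 fold change -0.12, SE 0.0384, adjusted p = 0.0478, edgeR). The other kainate subunits lay between -0.10 (Grik2) and 0.14 (Grik4) and did not pass, and with the striatum covariate these became 0.06 and -0.26. AMPA subunits lay between -0.06 and 0.02, and NMDA subunits between -0.10 (Grin2b) and 0.13 (Grin2d). In TETA libraries Gria1 was 373, 387, 389 and 358 CPM and Gria2 761, 735, 767 and 793 CPM, which overlap the control values given above. Grin1 was 628, 662, 645 and 627 CPM and Grin3a 49.8, 50.2, 51 and 49.8 CPM, also with overlap. Approximate 95% intervals of the log2 fold change ran from -0.11 to 0.03 for Gria1, from -0.04 to 0.07 for Gria2 and from -0.10 to 0.02 for Grin1.

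The ratio of Grin2a to Grin2b was slightly higher in TETA libraries. Grin2a was 240.2, 226, 237 and 265 CPM and Grin2b 673, 632, 708 and 764 CPM in TETA libraries, and neither passed the gene test (Grin2b log2 fold change -0.10, SE 0.0409, adjusted p = 0.151, edgeR). With 1 library left out Grin2b ran from -0.14 to -0.05 and was called in 1 of the 9 fits, without TETA 4 (adjusted p = 0.0234, edgeR). With the striatum covariate Grin2b was -0.39 (SE 0.154, adjusted p = 0.952, edgeR) and Grin2a -0.21 (SE 0.17). Their log2 ratio was -1.71 to -1.58 in controls and -1.58 to -1.48 in TETA libraries, so all 4 TETA libraries lay above all 5 controls, but TETA 3 (-1.577) and control 2 (-1.578) nearly met. The difference was 0.12, or 1.09-fold (exact two-sided permutation p = 0.0159, the smallest possible, adjusted p = 0.0397). With any of the 9 libraries left out the adjusted threshold was missed, since the smallest possible exact p then rises to 0.0286 or 0.0357, and the difference ran from 0.10 to 0.14. The Slc17a7 to Slc17a6, Gria2 to Gria1 and Grin3a to Grin1 ratios had exact permutation p-values of 0.27, 0.333 and 0.571 at 7 weeks.

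**Figure D4:**
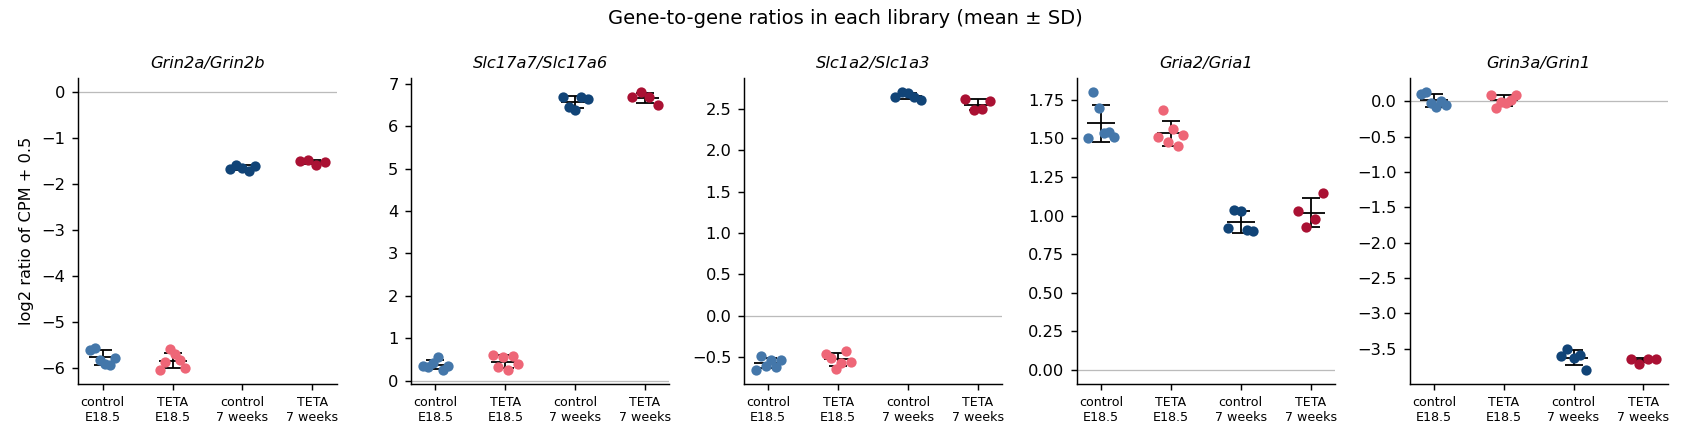
Log2 ratio of 2 genes (CPM + 0.5) in each library, with mean and SD per group. All 5 ratios separate the ages, and Grin2a/Grin2b is the ratio whose 7-week control and TETA libraries do not overlap.

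Of the metabotropic receptors, Grm3 and Grm4 were lower. Grm3 (mGluR3, found in astrocytes and neurons, chr5:9485541-9725170, minus strand) was 106, 113, 99.97, 109 and 108 CPM in controls and 96.5, 90.8, 91.8 and 104 CPM in TETA libraries, with TETA 4 inside the control range (log2 fold change -0.15, SE 0.0428, adjusted p = 0.0287, edgeR). Grm4 (chr17:27422387-27521403, minus strand) was 32.3, 32.4, 31.8, 32.8 and 31 CPM in controls and 27.6, 28.3, 26.3 and 30.6 CPM in TETA, without overlap (log2 fold change -0.18, SE 0.0503, adjusted p = 0.0284, edgeR). Grm5 lay just outside the threshold at -0.13 (SE 0.0422, adjusted p = 0.0522, edgeR). It was called in 1 of the 9 fits that left out 1 library (lowest adjusted p = 0.00202, edgeR), with DESeq2 and with a replicate block. Grm2, Grm7 and Grm8 had log2 fold changes of -0.04, 0.06 and 0.01.

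The vesicular transporters did not pass at 7 weeks in the main fit. Slc17a8 was called in 1 of the 9 fits that left out 1 library (lowest adjusted p = 0.0165, edgeR) and with a replicate block. Slc17a7 was 1749, 1781, 1693 and 1767 CPM in TETA libraries, with an approximate 95% interval of the log2 fold change from -0.06 to 0.06, and Slc17a6 was 16.5, 15.5, 15.8 and 18.9 CPM (-0.10, SE 0.0735). Slc17a8, present at 6.04 ± 0.81 CPM in controls (SD, n = 5) and 4.66 ± 0.476 CPM in TETA libraries (SD, n = 4), had the lowest log2 fold change of the members at -0.37 (SE 0.121, adjusted p = 0.0609, edgeR).

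**Figure D5:**
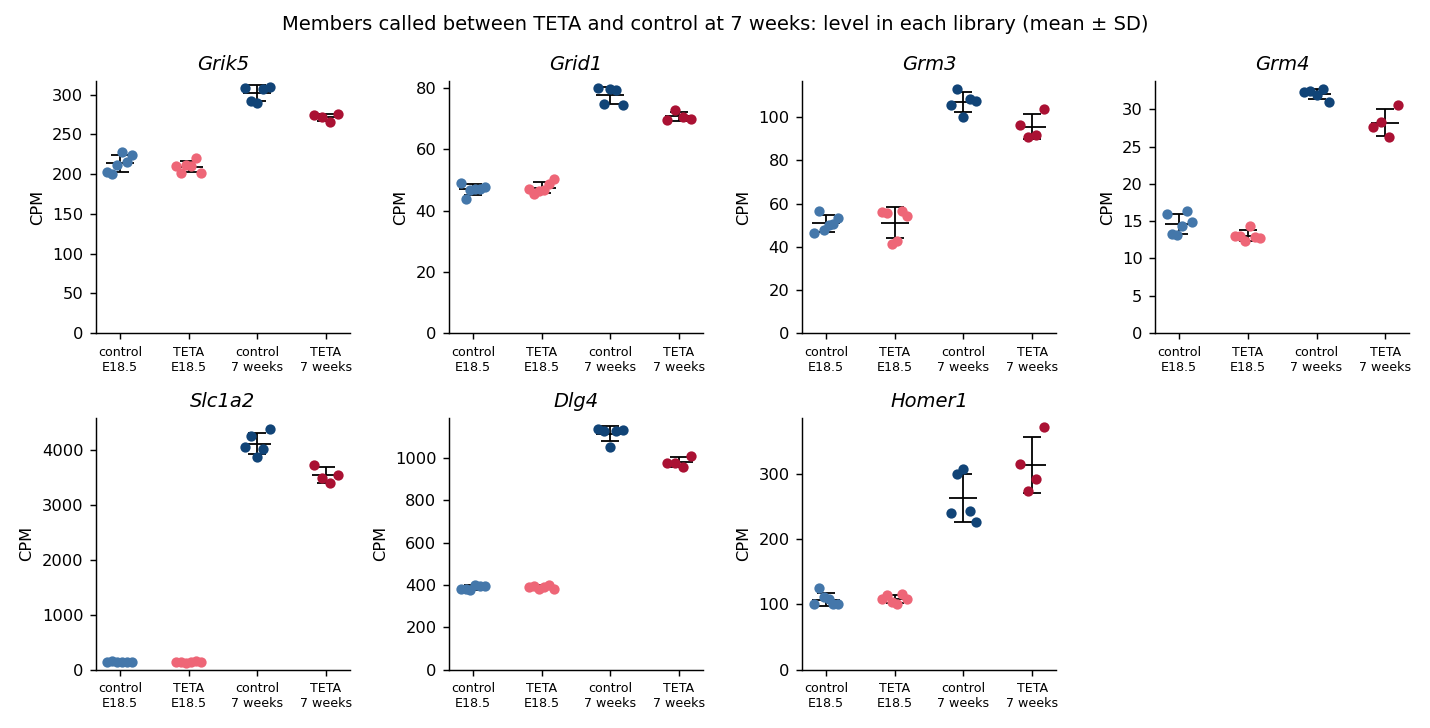
CPM of the 7 members called at 7 weeks in each of the 21 libraries, with mean and SD per group; each axis starts at 0. At 7 weeks the TETA and control points are apart for Grik5, Grid1, Grm4, Slc1a2 and Dlg4, and overlap for Grm3 and Homer1.

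TETA and control libraries did not overlap for 5 of the 32 members at 7 weeks (15.6%), against 11.6% of the genes with a mean of at least 1 CPM. Dlg4, Grik5 and Slc1a2 were called in each of the 9 fits that left out 1 library, with adjusted p-values of at most 0.0269 (edgeR). Grm3 was called in 4 of the 9 fits and lost without control 2 or 4 or TETA 1, 2 or 3. Grm4 was called in 3, without control 3 or 5 or TETA 4, and Grid1 in 3, without control 2 or 5 or TETA 2. Homer1 was called in 3, without control 2 or 3 or TETA 2, and its log2 fold change of 0.26 was 0.17 without TETA 4. The highest adjusted p-values of these 4 genes were 0.107 to 0.189 (edgeR). The count of called members was 3 without control 4 (the library with choroid plexus RNA), without TETA 1 or without TETA 3, in each case Dlg4, Grik5 and Slc1a2, and 4 without control 1. In these fits 8.26%, 8.07%, 6.49% and 8.99% of all genes were called. The 3 members were all lower, and in the 3 fits that left only these the share of all genes called lower was 3.45%, 3.26% and 2.88%.

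The TETA effects of the 2 ages were compared directly by an interaction term over all 21 libraries. Of 32 members 2 (6.25%) passed, both lower, against 3.1% of 14660 genes (1.43% lower). The effect of TETA on Dlg4 was -0.20 on the log2 scale at 7 weeks relative to E18.5 (SE 0.0453, adjusted p = 0.0105, edgeR) and that on Slc1a2 was -0.25 (SE 0.0679, adjusted p = 0.0338, edgeR). The 13 striatum markers all passed the same test, with a median of -1.34, and their part in these differences was not tested. For Dlg4 and Slc1a2 the E18.5 effect was near 0, at 0.01 and 0.03. The Dlg4 difference was called whichever of the 21 libraries was left out. The Slc1a2 difference was lost, with adjusted p-values of 0.0545 to 0.0977 (edgeR), without control 1-1, 2-1, 2-2 or 3-1 or TETA 1-1, 3-1 or 3-2 at E18.5, or without control 2 or 5 or TETA 2, 3 or 4 at 7 weeks. For Grik5, Grid1, Grm3, Grm4 and Homer1 the difference between the ages did not pass, with adjusted p-values of 0.136 to 0.922 (edgeR). Grm4 differed by -0.16 at E18.5 and -0.18 at 7 weeks.

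Another 53 genes that work with these members fall into 6 lists. At E18.5 0 of the 53 passed the edgeR test for TETA. An unadjusted p under 0.05 was found for 4 of the 53, and for 4.78% of all genes. At 7 weeks 1 was higher (1.89%, against 5.67% of all genes) and 5 were lower (9.43%, against 4.28%). The median log2 fold change was -0.02, and 11.3% of the 53 were called against 9.96% of all genes. The lowest was Cacng4, an AMPA receptor auxiliary subunit, at -0.38 (SE 0.0543, adjusted p = 1.53e-04, edgeR), the 1 call among 12 such subunits. Of 19 scaffolds and kinases of the postsynaptic density, 3 were lower: Camk2b (-0.15), Shank3 (-0.13) and Dlg2 (-0.11, PSD-93). Of 6 partners of delta and metabotropic receptors, Ncdn was lower (-0.12) and Elfn2, an adhesion protein that binds metabotropic receptors, was higher (0.17). The kainate auxiliary genes (2), the genes of glutamate metabolism and glutamine transport (10) and those of NMDA co-agonist supply (4) had 0 calls. The TETA effect differed between the ages for 3 of the 53, Cacng4 (-0.36), Dlg3 (-0.20) and Camk2b (-0.17), or 5.66% against 3.1% of all genes.

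Between the ages in controls, 35 of the 53 (66%) were higher and 14 (26.4%) lower, against 44% and 45.3% of all genes. By over 2-fold, 19 (35.8%) were higher and 7 (13.2%) lower, against 23.2% and 18%, and the median log2 fold change was 0.83. Among AMPA auxiliary subunits Cacng3 (2.76) and Gsg1l (2.11) were highest and Cacng4 (-2.94) and Shisa6 (-1.99) lowest, while the kainate auxiliary genes went apart, Neto1 by 0.24 and Neto2 by -1.86. In the postsynaptic list Nsf (2.77) and Dlgap2 (2.44) were highest and Homer3 (-1.8) and Grip1 (-1.4) lowest. The cystine-glutamate exchanger Slc7a11 (3.53) and Glul, the glutamine synthetase of astrocytes (3.24), led the metabolism list. Slc38a2 (-0.65) and Slc1a6 (-0.32), a glutamate transporter gene placed in that list, were its lowest. Co-agonist supply had Slc6a9, a glycine transporter (1.23), and Srr, the D-serine racemase (0.84), higher and Slc1a4 (-0.67) lower. Of the receptor partners, Ncdn (2.5) and Elfn2 (1.3) were highest and Cbln1 (-2.32), a cerebellin, lowest.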

How the data were processed

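RNA of 21 mouse brain libraries was sequenced. Per the file headers, the 2 deposited tables (1 per age) give unnormalized counts for each symbol and library. Per the submitters' processing notes, STAR 2.7.1a and featureCounts 2.0.1 were used with mm10; the annotation and strand setting are not given in the sources used here. At E18.5, 1940 genes at 0 in control 1-1 held multiples of 11 in every other library and were divided by 11; 0 members were among them.

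Each age was fitted alone (filterByExpr with a minimum count of 10, TMM, edgeR 4.0.16 quasi-likelihood test, BH over all genes, threshold 0.05), and all 21 libraries together for ages and the interaction. The SE is the log2 fold change over the square root of F. Ratios used CPM + 0.5 and exact permutation tests, adjusted over 15. Exon lengths and loci came from GENCODE M21 (GRCm38, the assembly of mm10), which may differ from the authors' annotation. The test was checked on simulated counts. Given for every library (in groups of 6 as lowest, median and highest) were members called for TETA, the 10 ratio genes and the 3 smallest p-values where none passed; of each list, genes called for TETA and the 2 highest and 2 lowest between ages. The members and lists were chosen with earlier results of these data known. R 4.3.3, DESeq2 1.42.0, Python 3.11.15, pandas 2.3.3 and scipy 1.17.1 were used. Alternatives were other filters, no TMM, DESeq2, counts as deposited, each library left out, a replicate block, a striatum covariate and a pseudocount of 0.1.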

Additional observations from a re-analysis of the deposited data

Results flagged for a closer look

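Dlg4 and Slc1a2 had a TETA effect that differed between the ages by the interaction test, by -0.20 and -0.25 on the log2 scale, as had all 13 striatum markers (median -1.34). With each of the 21 libraries left out in turn, the Dlg4 difference was called in 21 fits and the Slc1a2 difference in 9.

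Single libraries stood apart from their group in 14 of the 148 sets of values examined (the level of a member, as log2(CPM + 1), or a ratio, in 1 group), where chance gives about 1 in 20, or 7.4. The measure is the gap to the nearest other library divided by the range of the group. TETA 4 at 7 weeks was below the other 3 TETA libraries in 4 genes: Grin2d (3.83 against 4.12 in each of the others, 0.981), Grik2 (0.920), Grik3 (0.853) and Grik1 (0.839). Control 1-2 at E18.5 was above the other 5 controls in Grm5 (8.23 against at most 7.87, 0.757), Slc1a2 (0.673) and Grin3a (0.661). TETA 1-2 at E18.5 was above the other TETA libraries in Gria2 (9.68 against at most 9.49, 0.818) and Slc17a8 (0.770). Control 3 at 7 weeks was below the other controls in Dlg4 (10.04 against at least 10.14, 0.862) and Grm2 (0.803), control 5 at 7 weeks in Gria4 (7.18 against at least 7.26, 0.836), and control 2-2 at E18.5 was highest in Grik3 (0.636). The ratio of Grin3a to Grin1 was lowest in TETA 2 at 7 weeks (-3.71 against -3.65 to -3.64, 0.915).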

How the results depend on the processing

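At 7 weeks the count of called members was 7 without a filter on low counts (8.02% of all genes), 6 with a mean of at least 50 counts (11.1%), 6 without TMM (10.4%), 7 with DESeq2 (Grm5 in, Homer1 out; 9.82%) and 0 with the striatum covariate, where the Grid1 difference was 0.038. It ran from 3 to 8 when 1 library was left out, with 6.49% to 9.83% of all genes called. Without TMM the 1418 calls, 808 higher and 610 lower, became 1003 higher and 480 lower. At E18.5 0 members were called under any setting tried, while DESeq2 called 10 genes, and 3 and 7 genes were called without control 3-2 and without TETA 1-2. The interaction count was 1 of 32 without TMM, where 3.92% of all genes were called, and 1 to 3 with 1 library left out (1.97% to 4.24% of all genes). Between the ages in controls, Gria2 was -0.11 without TMM, which moved the median of all genes by -0.15 and the calls from 6450 higher and 6648 lower to 5815 and 7383. The Grin3a to Grin1 ratio at E18.5 (difference 0.00) ran from -0.019 to 0.024 with 1 library left out. The cause of these changes was not tested.

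Deviations from the group means were correlated between same-numbered control and TETA libraries. The correlations ran from -0.275 to 0.284 over 6 pairs at E18.5 and from -0.0692 to -0.0295 over 4 at 7 weeks. Of the libraries, 2 of 6 and 0 of 4 correlated best with their own number. These values gave no ground to pair libraries by number, but they cannot show that the libraries were not paired. The main fits did not pair them. With a replicate block 0 members were called at E18.5, whether by the full number or by its first part. At 7 weeks 5 were called (Dlg4, Grik5, Slc1a2, Grm5 and Slc17a8), of 1072 genes (7.53%). The calls of Grid1, Grm3, Grm4 and Homer1 were lost.

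Grin3b, with 0 to 7 counts per library, was too low to test, and Slc17a8 had the highest SE at both ages. With 4 and 5 libraries at 7 weeks, the smallest exact p of a ratio test is 0.0159. Age, table, dissection and sequencing run cannot be told apart, and neither can TETA and striatal content at 7 weeks.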
